A study of Homo sapiens with 39 samples.

Results

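C4-2B cells, a castration-resistant human prostate cancer line derived from LNCaP, were given an androgen receptor pathway inhibitor together with a PARP inhibitor for 5 days, and the RNA of the pairs was compared directly. The libraries were chosen by their treatment label. They are 3 libraries of cells treated with enzalutamide (20 µM) plus talazoparib (10 nM) and 3 of cells treated with abiraterone acetate (5 µM) plus olaparib (1 µM), labelled A, B and C in each group, and they make 6 of the 39 libraries in the series. The other libraries of the 5-day panel, which holds 21, come from cells treated with DMSO, abiraterone, enzalutamide, olaparib or talazoparib alone, 3 libraries each. Each drug was given alone at the dose it had in the combination. These libraries entered the same fit and are used here for levels beside the combinations and for differences between single agents. A time course of olaparib, with 18 libraries, was not used here. All cells belong to this single line and were grown in the same medium with serum, nothing in the labels ties the letters to separate cultures, and p-values therefore measure only the spread between these libraries. The pairs differ in both drugs and in every dose, so a difference between them cannot be assigned to a single drug from these 6 libraries.

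Enzalutamide binds the androgen receptor and blocks it, while abiraterone inhibits CYP17A1, the enzyme that commits steroid precursors to androgens. Both are called androgen receptor pathway inhibitors (ARPi). Olaparib and talazoparib are PARP inhibitors (PARPi): they block the enzymes that mark DNA breaks with ADP-ribose chains and hold PARP1 on DNA, and cells then accumulate lesions during replication and activate checkpoints through p53. Luminal prostate cells depend on the androgen receptor for secretory genes such as KLK3, which encodes prostate-specific antigen.

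The libraries held between 33568040 and 49544844 counts with enzalutamide plus talazoparib and between 26932205 and 37975379 with abiraterone plus olaparib. The deeper group gives the smaller counting error. With all 6 libraries thinned to the same total, 2101 genes were called, of which 1979 were among the 2337 called at full depth. Each of the 12 luminal markers had more than 3 counts in some of these libraries, and their summed level was 3620 to 3690 CPM (counts per library scaled to a common total, with TMM scaling) with enzalutamide plus talazoparib and 3880 to 3960 with abiraterone plus olaparib. Their median level relative to DMSO went the other way, at -0.14 in each library on the log2 scale against -0.28 to -0.25. The median of their log2 differences between the combinations was -0.0687, with 4 of 12 above 0, so these summaries differ in sign. Markers of basal cells summed to at most 0.439 CPM in any of the 6 libraries. Fibroblast markers summed to 23.2 to 24.3 CPM over the 6 libraries and immune markers to 5.31 to 7.98, and 4 of 8 and 4 of 9 of them had no count in any. Endothelial markers summed to at most 16.0 CPM with enzalutamide plus talazoparib and to 20.2 to 22.7 with abiraterone plus olaparib, nearly all of it VWF (-0.45 ± 0.07, adjusted p = 4.74e-06), and the part of such markers in the results was not tested.

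Of 18625 genes tested, 2337 (12.5%) differed between the combinations (edgeR, quasi-likelihood test, Benjamini-Hochberg adjusted p under 0.05). With enzalutamide plus talazoparib, 1087 genes (5.84%) were higher and 1250 (6.71%) were lower. Most differences were small: the median absolute log2 difference of the called genes was 0.206. An absolute log2 difference of at least 0.5 was reached by 357 called genes (1.92% of those tested), 96 higher (0.515%) and 261 lower (1.4%). A difference of at least 1 was reached by 125 (0.671%), 22 higher (0.118%) and 103 lower (0.553%). In 2287 of the 2337 called genes the 3 libraries of one combination did not overlap the 3 of the other, whereas over all genes tested 14.4% were higher and 15.1% lower without overlap.

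The largest rises with enzalutamide plus talazoparib included genes of amino acid supply and of glutathione. CHAC1 (ENSG00000128965.13, GRCh38 chromosome 15 from 40952962 to 40956512), which encodes an enzyme that degrades glutathione, stood at 2.86, 2.92 and 3.16 CPM with enzalutamide plus talazoparib and at 1.17, 1.57 and 1.41 with abiraterone plus olaparib. The libraries did not overlap, and all 6 were below the DMSO mean of 11.8 CPM. The log2 difference was 1.09 ± 0.15 (SE, adjusted p = 3.32e-06), resting on 36 to 143 counts per library. RILPL2, whose product takes part in transport to primary cilia (ENSG00000150977.11, chromosome 12 from 123415039 to 123436684), had 93.9, 92.5 and 87.8 CPM against 45.8, 47.4 and 43.5. Here the abiraterone plus olaparib libraries lay near the DMSO mean of 48.4 CPM and the others at about double that level, with a log2 difference of 1.00 ± 0.05 (adjusted p = 1.36e-16). SLC2A13, a proton and myo-inositol symporter, had 45.6, 45.5 and 44.6 CPM against 23.7, 25.2 and 25.1, on either side of a DMSO mean of 35.9 CPM (log2 difference 0.87 ± 0.04, adjusted p = 2.08e-17).

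The rest of the 12 largest rises ranged down to a log2 difference of 0.71. They were the retinaldehyde reductase DHRS3, the transcription factors SP8 and SOX9, the guanine nucleotide exchange factors FGD1 and PREX1, the stress-regulated NIBAN1, the glycine transporter SLC6A9, the mitochondrial folate enzyme ALDH1L2 and the cystine transporter SLC7A11. PREX1 was near absent with DMSO, at a mean of 1.26 CPM, and reached 36.0, 33.3 and 35.7 CPM with enzalutamide plus talazoparib and 20.8, 20.8 and 22.9 with abiraterone plus olaparib. SLC7A11 lay below its DMSO mean of 186 CPM in all 6 libraries, at 65.6, 69.6 and 73.0 CPM against 39.1, 41.6 and 44.6 (log2 difference 0.73 ± 0.08, adjusted p = 5.24e-06).

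The largest falls were steeper than the largest rises, and among genes averaging 100 counts or more in the higher group CYP1A2, TRPM8 and CYP1A1 came first. CYP1A2, a drug- and estrogen-metabolizing enzyme induced through the aryl hydrocarbon receptor (ENSG00000140505.7, chromosome 15 from 74748845 to 74756607), had 0.780, 0.754 and 0.586 CPM with enzalutamide plus talazoparib and 5.80, 5.29 and 5.00 with abiraterone plus olaparib. The log2 difference was -2.91 ± 0.28 (adjusted p = 2.79e-09), the largest among the genes named by the rule on the mean count. Its neighbor CYP1A1, induced through the same receptor, had 6.46, 6.95 and 6.85 CPM against 23.7, 24.3 and 20.7 (log2 difference -1.76 ± 0.09, adjusted p = 2.32e-16). Both genes stood above their DMSO means, which were 0.0742 and 1.12 CPM, in all 6 libraries.

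TRPM8, a cold-sensing calcium channel regulated by androgens (ENSG00000144481.17, chromosome 2 from 233917373 to 234019522), had 5.46, 5.73 and 4.68 CPM with enzalutamide plus talazoparib and 20.4, 20.0 and 20.3 with abiraterone plus olaparib. Its DMSO mean was 24.5 CPM, so that the abiraterone plus olaparib libraries lay close to it and the others far below (log2 difference -1.93 ± 0.08, adjusted p = 1.14e-19). THBS1, a secreted matrix glycoprotein, had 4.94, 5.23 and 6.09 CPM against 16.6, 18.1 and 16.6, with a DMSO mean of 12.6 CPM between the groups (log2 difference -1.67 ± 0.10, adjusted p = 8.74e-13). The transcription factor KLF7 had 16.1, 18.1 and 16.8 CPM against 42.1, 45.2 and 41.3, and its DMSO mean was 39.8 CPM (log2 difference -1.34 ± 0.06, adjusted p = 3.54e-19). SMOC1, NAV3, VSTM2A, ZPLD1, GPR158, the drug efflux pump ABCG2 and ZNF385B completed the 12 largest falls, with log2 differences between -1.50 and -1.15.

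**Figure D1:**
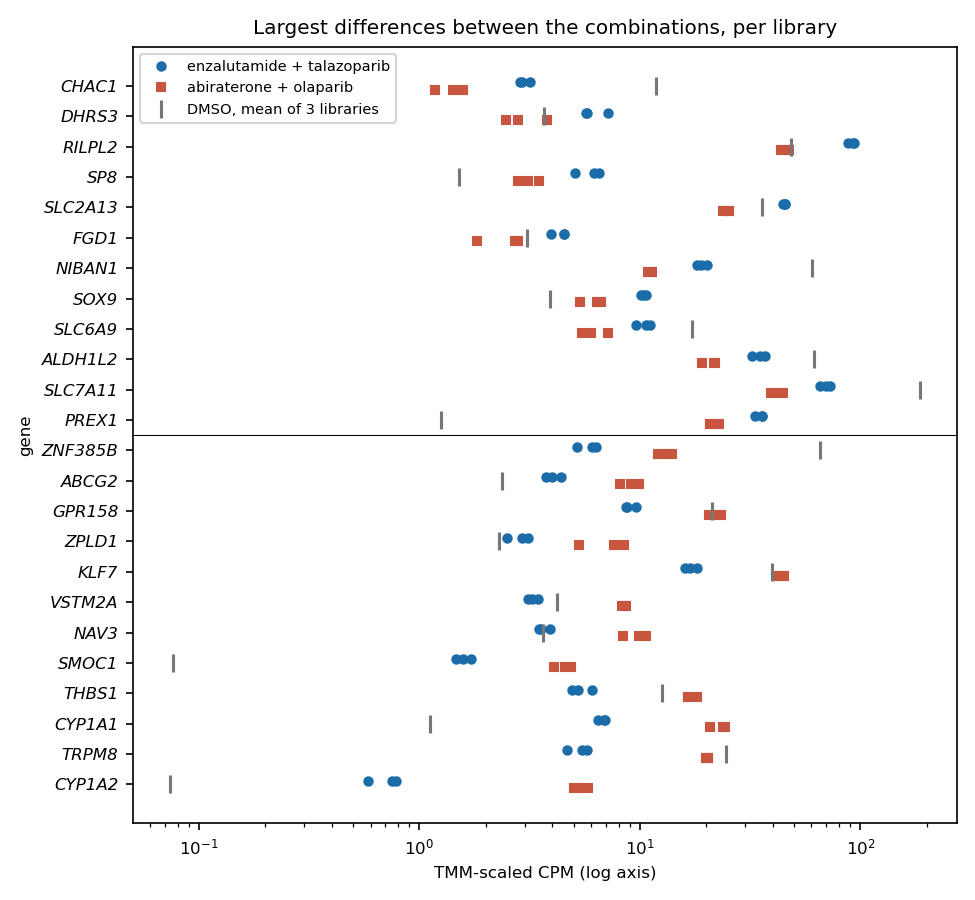
TMM-scaled CPM on a log axis for the 12 largest rises (above the line) and the 12 largest falls (below it), where each circle is a library of enzalutamide plus talazoparib, each square a library of abiraterone plus olaparib and each gray bar the mean of the 3 DMSO libraries. The circles and squares of a gene do not overlap, as the rule for these genes required, and CYP1A2 is separated most, at 0.586 to 0.780 against 5.00 to 5.80 CPM.

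Members of 49 gene lists, written with earlier results of these data known, were then counted. Against 5.84% of all tested genes that were higher and 6.71% that were lower, 88.3% of the G2/M and mitosis genes were higher and none was lower, and 42.7% of the androgen response genes were lower and 4.17% higher. Few members were called among the nuclear genes of oxidative phosphorylation (4 higher and 1 lower of 76, with 62 differences above 0) and the Wnt pathway (3 higher and 2 lower of 37). Without enzalutamide plus talazoparib replicate A, 1 gene of oxidative phosphorylation and 1 Wnt gene were higher, and 2 and 1 were without abiraterone plus olaparib replicate C. Without enzalutamide plus talazoparib replicate C, 7 genes of oxidative phosphorylation were higher. The median log2 difference over all genes tested was -0.000524, and it was -0.00374 and -0.00738 under the other scalings.

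**Figure D2:**
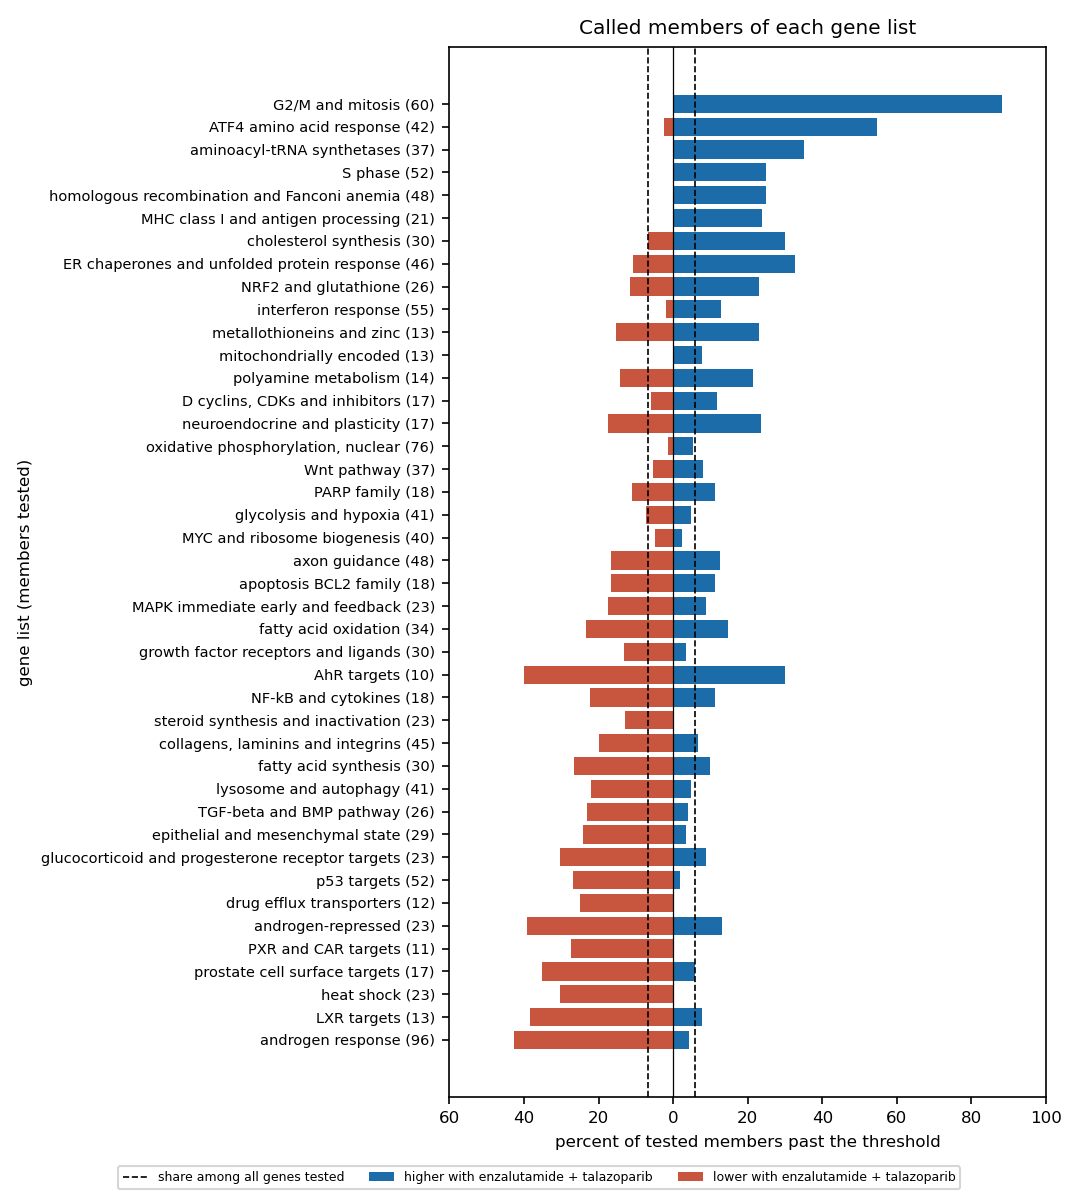
Percent of the tested members of each gene list (members tested in brackets) that were higher (blue, to the right) or lower (red, to the left) with enzalutamide plus talazoparib at an adjusted p under 0.05, for lists with at least 10 tested members. Lists of cell type markers, such as the luminal markers, are not drawn. The dashed lines mark the shares among all genes tested, 5.84% and 6.71%. Of the lists drawn, the G2/M list at 88.3% and the androgen response list at 42.7% are the extremes.

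Genes of the G2 phase and mitosis were higher with enzalutamide plus talazoparib in 53 of 60 members tested, with a median log2 difference of 0.244. CENPF, a kinetochore protein, had 196, 203 and 204 CPM with enzalutamide plus talazoparib and 157, 150 and 150 with abiraterone plus olaparib (log2 difference 0.40 ± 0.05, adjusted p = 2.68e-06). CKS1B, a subunit of cyclin-dependent kinase complexes, had 50.4, 50.5 and 50.9 CPM against 38.0, 39.3 and 38.5 (0.39 ± 0.05, adjusted p = 7.49e-08). SPC25, part of the NDC80 kinetochore complex, had the largest difference of the list, at 0.42 ± 0.07 (adjusted p = 2.57e-05). For none of these did the groups overlap, and the DMSO means of 264, 71.4 and 16.7 CPM lay above all 6 libraries.

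Cyclin B1 (CCNB1), which drives entry into mitosis, had 143, 143 and 142 CPM against 117, 115 and 115, and the mitotic kinase gene PLK1 had 56.1, 47.9 and 50.6 CPM against 40.1, 39.7 and 44.9. The log2 differences were 0.30 ± 0.03 and 0.32 ± 0.05 (adjusted p = 1.19e-09 and 0.000165). The 7 members that did not pass were MKI67, CENPE, CENPI, KIF23, CDC25A, ANLN and BUB3, and MKI67, the proliferation marker, had 176, 178 and 188 CPM against 161, 152 and 164 (0.19 ± 0.09, adjusted p = 0.247). In each library, the median of the list relative to the mean of DMSO was -0.43, -0.40 and -0.45 on the log2 scale with enzalutamide plus talazoparib and -0.69, -0.66 and -0.70 with abiraterone plus olaparib. The list was therefore below DMSO with both combinations, and further below with abiraterone plus olaparib. Fewer cells in these phases and less of this RNA per cell cannot be told apart in bulk libraries.

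The cell cycle genes homology region (CHR), written TTTGAA, is a promoter element known from genes of late cell cycle phases. These letters were searched on both strands of the 250 bases before each RefSeq gene start (GRCh38.p14) and were chosen after the values were seen. They were present in 26 of the 51 list members with an entry (51.0%), against 13.6% of 27305 promoters of all genes, and in 23 of the 45 called members with an entry. The stretches around the match nearest the start are shown for 4 called members as examples of that shared element, with the match in capitals, and all 4 lie on the plus strand.
CCNB2 (chr15:59105106-59105133): gcgacgcggtaTTTGAAtcctggaacaa
CDC20 (chr1:43358905-43358932): gacggttggatTTTGAAggagccaatag
PLK1 (chr16:23678849-23678876): ccagcgccgcgTTTGAAttcggggagga
CKS1B (chr1:154974640-154974667): cgggcggcgtgTTTGAAagcgaggccaa
The match began 29 bases before the start in CCNB2 and PLK1, 30 in CKS1B and 65 in CDC20. A match describes the sequence only, and binding was not measured.

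Genes of S phase and of homologous recombination moved in the same direction in fewer members. Of 52 S phase genes 13 were higher and none lower, with a median log2 difference of 0.103. The leading members were the transcription factor E2F8 (0.33 ± 0.09, adjusted p = 0.00741, lost in 3 of 14 alternatives with an adjusted p of up to 0.103), thymidine kinase TK1 (0.30 ± 0.05, adjusted p = 2.19e-05) and the clamp loader subunit RFC3 (0.24 ± 0.03, adjusted p = 1.27e-06). The count was 8 without abiraterone plus olaparib replicate A and 20 when only these 2 groups were fitted. Of 48 genes of homologous recombination and the Fanconi anemia pathway 12 were higher and none lower, with a median of 0.0973, and 5 of them were higher without abiraterone plus olaparib replicate B.

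RAD51B, a recombination factor, had the largest difference of the repair list, with 5.54, 5.89 and 5.74 CPM against 4.30, 3.84 and 4.60 (0.44 ± 0.11, adjusted p = 0.0075). It lost its call without abiraterone plus olaparib replicate B (highest adjusted p over the alternatives 0.0737). EME1, a nuclease subunit, and RAD51AP1, a recombination accessory factor, differed by 0.35 ± 0.06 and 0.31 ± 0.06 (adjusted p = 4.34e-05 and 0.00022). BRCA1 had 71.9, 77.0 and 77.9 CPM against 64.4, 67.8 and 70.9 without overlap, a log2 difference of 0.16 ± 0.05 (adjusted p = 0.043) that lost its call in 6 of 14 alternatives, where the adjusted p ranged from 0.000842 to 0.162. BRCA2 had 58.4, 68.6 and 71.0 CPM against 60.4, 57.4 and 60.9, and the groups overlapped (0.15 ± 0.11, adjusted p = 0.479).

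**Figure D3:**
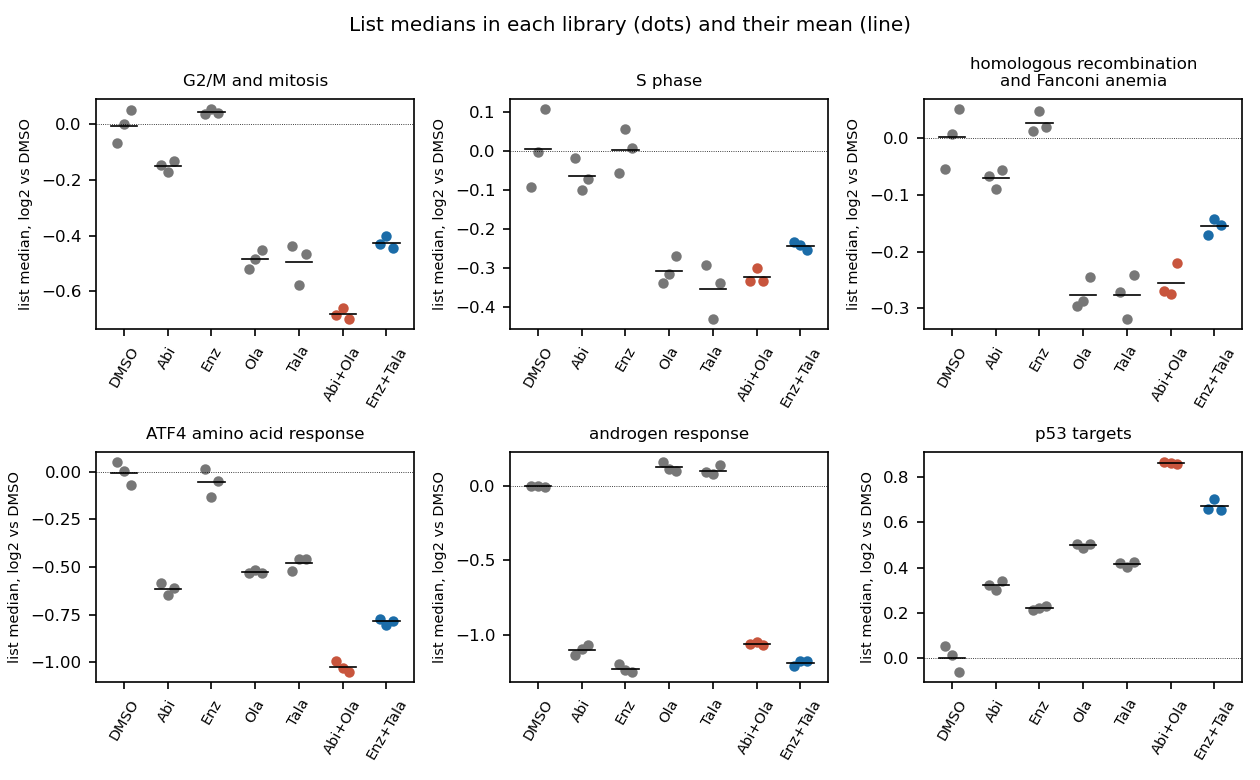
Median log2 level of the members of 6 gene lists in each library, relative to the mean of the 3 DMSO libraries, for the 7 treatments of the panel. Dots are libraries and lines their means; the blue dots (enzalutamide plus talazoparib) and red dots (abiraterone plus olaparib) do not overlap in any of the 6 lists, and for G2/M they lie at -0.45 to -0.40 and -0.70 to -0.66.

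The amino acid response of ATF4, a transcription factor whose translation rises when amino acids are short or proteins misfold, was higher with enzalutamide plus talazoparib in 23 of 42 members and lower in 1, with a median log2 difference of 0.201 (0.192 with the 2 members at or under 3 counts set to their bound). ATF4 itself had 305, 307 and 302 CPM against 245, 247 and 238, below a DMSO mean of 534 CPM in every library (0.32 ± 0.03, adjusted p = 8.94e-11). ASNS, asparagine synthetase, had 161, 164 and 163 CPM against 105, 106 and 107 (0.62 ± 0.07, adjusted p = 7.66e-06), also below its DMSO mean of 402 CPM. The serine synthesis genes PHGDH and PSAT1 had 340 to 343 and 219 to 230 CPM against 251 to 254 and 168 to 173, differences of 0.43 ± 0.03 and 0.39 ± 0.05 (adjusted p = 1.83e-12 and 9.85e-06).

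The transporters SLC6A9, SLC7A5, SLC1A4, SLC1A5 and SLC7A1 were also among the 23 members higher, at log2 differences between 0.32 and 0.76. Among members that did not pass were DDIT3 and TRIB3: DDIT3, which encodes CHOP, had 14.6, 14.9 and 14.8 CPM against 12.7, 13.3 and 13.0 (0.19 ± 0.08, adjusted p = 0.13), and TRIB3, a pseudokinase, differed by 0.16 ± 0.07 (adjusted p = 0.113). CLGN, a chaperone gene, was the member that fell, by 0.35 on the log2 scale (adjusted p = 1.19e-06). The median of the list lay at -0.77, -0.80 and -0.78 relative to DMSO with enzalutamide plus talazoparib and at -0.99, -1.03 and -1.05 with abiraterone plus olaparib.

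Of 37 aminoacyl-tRNA synthetase genes, which load tRNAs with amino acids, 13 were higher and none lower (median 0.0555). They were led by GARS1, with 167, 169 and 169 CPM against 137, 136 and 130 (0.33 ± 0.03, adjusted p = 6.08e-09), CARS1 (0.30 ± 0.04, adjusted p = 7.23e-06) and AARS1 (0.28 ± 0.03, adjusted p = 4.89e-10). IARS2, a mitochondrial enzyme, was also among the 13 (0.12 ± 0.03, adjusted p = 0.0031).

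The C/EBP and ATF response element (CARE), written TGATGNAA, was present on either strand in the same 250 bases in 4 of 34 list members with an entry (11.8%) and in 3 of 30 synthetase genes (10.0%), against 3.19% of all promoters. The 4 called genes of the lists with a match are shown, in the direction of transcription, with the match in capitals, which appears as TTGCATCA where it lies on the opposite strand.
CHAC1 (chr15:40953251-40953280, plus strand): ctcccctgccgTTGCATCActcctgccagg
ASNS (chr7:97872458-97872487, minus strand): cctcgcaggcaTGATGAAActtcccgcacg
AARS1 (chr16:70289675-70289704, minus strand): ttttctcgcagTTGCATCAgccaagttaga
IARS1 (chr9:92293698-92293721, minus strand): ttttcagcgcgTTGCATCAcctcc
The match began 209 bases before the RefSeq start in CHAC1, 68 in ASNS, 187 in AARS1 and 13 in IARS1. The CHAC1 stretch lies inside the GENCODE coordinates given above for that gene, which begin further upstream than its RefSeq start. CHAC1 and ASNS were the 2 with a match among the 17 called ATF4 list members with an entry.

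Androgen response genes were lower with enzalutamide plus talazoparib in 41 of 96 members and higher in 4, with a median log2 difference of -0.13. KLK3 (ENSG00000142515.16, chromosome 19 from 50854915 to 50860764) had 347, 323 and 323 CPM against 503, 503 and 492, both far below the DMSO mean of 1450 CPM (log2 difference -0.59 ± 0.05, adjusted p = 7.29e-08). KLK2, the related kallikrein, had 17.8, 16.4 and 17.3 CPM against 25.2, 26.1 and 26.1 (-0.59 ± 0.05, adjusted p = 3.52e-11). In these genes no library of one combination reached the range of the other.

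The test did not separate the combinations in other androgen targets. FKBP5, a receptor co-chaperone, had 119, 120 and 124 CPM against 124, 122 and 130, and TMPRSS2, a membrane protease, had 51.1, 49.6 and 49.4 CPM against 54.0, 56.0 and 56.4. Neither passed the threshold (-0.05 ± 0.03, adjusted p = 0.345, and -0.15 ± 0.09, adjusted p = 0.332), and their DMSO means were 840 and 250 CPM. The libraries of TMPRSS2 did not overlap, and it passed in 1 alternative, at an adjusted p of 0.00662 with only the groups compared, and in no other. The members that were higher were INSIG1, which restrains sterol synthesis (0.41 ± 0.03, adjusted p = 2.49e-13), the cytokine receptor LIFR (0.31 ± 0.04, adjusted p = 9.59e-06), the desaturase FADS1 and the ETS factor ELK4. TARP, whose reads overlap the T cell receptor gamma locus and whose value is uncertain, and SNAI2, a repressor of epithelial genes, differed by -1.97 ± 0.22 and -1.04 ± 0.20 (adjusted p = 1.95e-07 and 0.00044) at levels under 3 CPM. The list median relative to DMSO was -1.21, -1.18 and -1.18 with enzalutamide plus talazoparib and -1.06, -1.05 and -1.07 with abiraterone plus olaparib.

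Of 23 genes known to be repressed by androgens, 9 were lower and 3 higher, and 1 was higher without abiraterone plus olaparib replicate B. The median log2 difference of their members was -0.101, while the median level of the list relative to DMSO was higher with enzalutamide plus talazoparib, at 0.88, 0.85 and 0.90 against 0.77, 0.79 and 0.79, so these summaries differ in sign. DPP4, a cell-surface peptidase, had 103, 104 and 98.8 CPM against 172, 162 and 154 (-0.68 ± 0.03, adjusted p = 2.08e-17). UGT2B28, a steroid-glucuronidating enzyme whose near-identical relatives make its count uncertain, had 2.38, 1.86 and 1.70 CPM against 4.72, 4.18 and 3.77 (-1.07 ± 0.15, adjusted p = 1.36e-05). The survival gene BCL2 had 3.16, 3.30 and 4.45 CPM against 2.70, 2.17 and 2.03 (0.65 ± 0.16, adjusted p = 0.00569), and its adjusted p was 0.0666 without enzalutamide plus talazoparib replicate C. The letters of the androgen response element, searched in the same 250 bases, were found in 0 of 73 androgen response promoters with an entry. They were found in 0.33% of all promoters. At so low a share, a list of 73 promoters would be likely to hold no match, so this search cannot tell the list from other promoters. Sites outside these bases or with other letters were not searched, and whether these genes have receptor sites was not tested.

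Genes for handling foreign compounds and for efflux differed in some members. Of 10 genes listed for the aryl hydrocarbon receptor (its targets, the receptor gene AHR and its partner gene ARNT), 4 were lower and 3 higher. Lower were CYP1A2, CYP1A1, CYP1B1 and AHR, and higher were SLC7A5, NQO1 and ARNT. The counts were 2 lower without abiraterone plus olaparib replicate B and 1 higher without its replicate C. CYP1B1 had 1.12, 1.67 and 1.61 CPM against 2.18, 2.22 and 2.61 (-0.68 ± 0.21, adjusted p = 0.0253) and lost its call in 3 of 14 alternatives. Of 12 efflux transporters 3 were lower and none higher. ABCG2, which exports several anticancer drugs, had 3.76, 4.38 and 4.01 CPM against 8.11, 9.93 and 9.10 (-1.16 ± 0.13, adjusted p = 6.88e-08), and ABCC4 had 388, 376 and 378 CPM against 516, 499 and 497 (-0.41 ± 0.03, adjusted p = 2.27e-13).

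Targets of the xenobiotic receptors PXR and CAR were lower in 3 of 11 members, namely CYP3A5, GSTA2 and GSTA1, of which the last 2 are near-identical copies. The count was 1 without abiraterone plus olaparib replicate B or enzalutamide plus talazoparib replicate B, and each of the 3 genes lost its call in 2 of 14 alternatives. CYP3A4 had between 1 and 5 counts in each of the 6 libraries and was not tested. The targets of the glucocorticoid and progesterone receptors, kept as a single list, were lower in 7 of 23 members and higher in 2. The 7 became 3 without abiraterone plus olaparib replicate A and 4 without enzalutamide plus talazoparib replicate A or B. ZBTB16 and the clock gene PER1 differed by -0.82 ± 0.06 and -0.80 ± 0.08 (adjusted p = 2.3e-09 and 7.81e-09), while TSC22D3, known as GILZ, had 31.1, 27.7 and 28.6 CPM against 20.1, 20.2 and 19.1 (0.56 ± 0.06, adjusted p = 2.64e-08).

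Targets of p53, the checkpoint factor activated by DNA damage, were lower with enzalutamide plus talazoparib in 14 of 52 members and higher in 1, with a median log2 difference of -0.119. CDKN1A, which encodes the cell cycle inhibitor p21 (ENSG00000124762.14, chromosome 6 from 36676460 to 36687337), had 268, 265 and 267 CPM against 346, 353 and 355, and its DMSO mean was 54.1 CPM. All 6 libraries were therefore above DMSO, and the log2 difference between the combinations was -0.40 ± 0.05 (adjusted p = 7.25e-06). PLK2, a stress-induced kinase, differed by -0.67 ± 0.09 (adjusted p = 2.02e-06), SPATA18, a regulator of mitochondrial quality, by -0.39 ± 0.07 (adjusted p = 6.29e-05) and MDM2, which degrades p53, by -0.11 ± 0.03 (adjusted p = 0.00582). CCNG1, cyclin G1, was the member that was higher (0.12). With a library left out, 0 to 2 members were higher and 10 to 14 lower. The list median relative to DMSO was 0.66, 0.70 and 0.65 with enzalutamide plus talazoparib and 0.87, 0.86 and 0.86 with abiraterone plus olaparib.

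**Figure D4:**
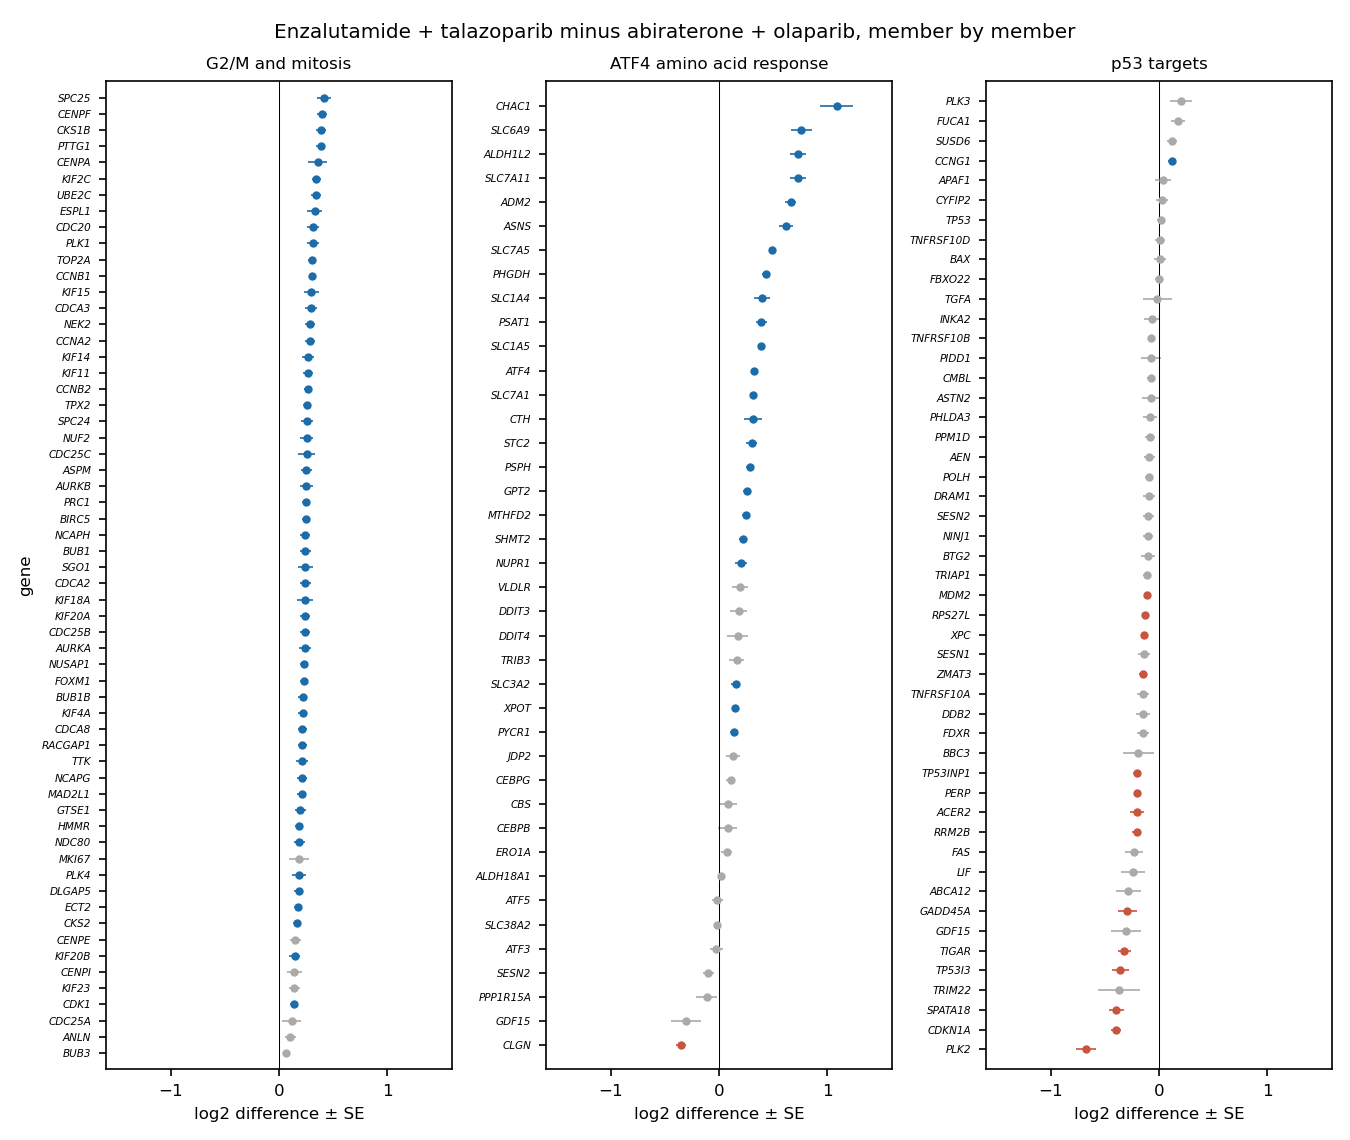
Log2 difference between the combinations with its SE for each tested member of the G2/M, ATF4 and p53 lists, where blue marks members higher and red members lower with enzalutamide plus talazoparib at an adjusted p under 0.05, and gray those that did not pass. Members with an SE over 0.3 (2 of the ATF4 list and 3 of the p53 list, none of them called) are not drawn, and all drawn members of the G2/M list lie to the right of 0.

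Several smaller groups differed in a few members. Of 23 heat shock genes 7 were lower and none higher, led by the small heat shock proteins CRYAB (-0.62 ± 0.15, adjusted p = 0.00369) and HSPB8 (-0.38 ± 0.10, adjusted p = 0.00598), and 4 were lower without abiraterone plus olaparib replicate A, where HSPB8 was not called. Among 46 genes of endoplasmic reticulum chaperones and the unfolded protein response 15 were higher and 5 lower (3 lower without abiraterone plus olaparib replicate A). XBP1, a transcription factor of that response, had 123, 119 and 121 CPM against 107, 103 and 104 (0.21 ± 0.04, adjusted p = 0.000136). Of 30 cholesterol synthesis genes 9 were higher and 2 lower (0 lower without abiraterone plus olaparib replicate B, and 1 without its replicate A or enzalutamide plus talazoparib replicate B or C), with INSIG1 and the sterol reductase LBR (0.31 ± 0.03, adjusted p = 1.12e-08) leading.

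Targets of the sterol sensor LXR were lower in 5 of 13 members, including the cholesterol exporter ABCG1 (-0.50 ± 0.09, adjusted p = 0.000119), and higher in 1. Lysosome and autophagy genes were higher in 2 of 41 (1 to 2 with a library left out) and lower in 9. The lower members were 4 without abiraterone plus olaparib replicate A and 3 without its replicate B or enzalutamide plus talazoparib replicate C. They were led by the cholesterol transporter NPC1, with 91.6, 93.3 and 92.8 CPM against 130, 128 and 128 (-0.47 ± 0.03, adjusted p = 3.52e-13). Of 45 genes of collagens, laminins and integrins 9 were lower and 3 higher, and fibronectin (FN1) had 412, 396 and 402 CPM against 702, 667 and 665 (-0.75 ± 0.03, adjusted p = 7.62e-15), above its DMSO mean of 194 CPM in all 6 libraries. Antigen processing genes were higher in 5 of 21 members and lower in none, HLA-DMA, TAP2, PDIA3 and CALR among them, with log2 differences between 0.10 and 0.34, and HLA-DMA lost its call in 6 of 14 alternatives. Interferon response genes were higher in 7 of 55 and lower in 1, led by STING1 (0.43 ± 0.12, adjusted p = 0.0112). The 7 became 4 without abiraterone plus olaparib replicate A, and STING1 lost its call in 3 of 14 alternatives (highest adjusted p 0.0625).

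PARP1 and PARP2 encode the main enzymes that PARPi block. PARP1 had 479, 482 and 476 CPM against 490, 485 and 475 and PARP2 31.1, 32.2 and 31.6 against 28.1, 30.5 and 30.9, and neither passed (adjusted p = 0.781 and 0.309). CYP17A1 held no count with enzalutamide plus talazoparib and 3, 1 and 3 counts with abiraterone plus olaparib, both at or under 3 counts, so no fold change is given although it was among the genes called (lost in 6 of 11 alternatives). Of 18 genes of the PARP family and its partners that were tested, PARP14 and PARP8 were higher (0.33 ± 0.07 and 0.25 ± 0.08, adjusted p = 0.000924 and 0.0371) and TNKS2 and PARP4 lower. PARP8 lost its call in 4, TNKS2 in 2 and PARP4 in 1 of 14 alternatives.

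The 12 libraries of the single agents allowed each change of drug to be viewed on its own, in libraries not used for the combinations. Enzalutamide and abiraterone differed in 3694 genes (19.8% of those tested, 9.78% higher and 10.1% lower with enzalutamide). Talazoparib and olaparib differed in 1557 (8.36%, with 3.11% higher and 5.25% lower with talazoparib), and this count ranged from 595 without talazoparib replicate C to 1821 without its replicate A. Of the 2337 genes that separated the combinations, 2258 (96.6%) had the same direction in enzalutamide minus abiraterone, against 69.1% of all genes tested, and 1628 (69.7%) were also called there in that direction. In talazoparib minus olaparib 1499 (64.1%) had the same direction, against 54.5% of all genes tested, and 334 (14.3%) were called in it, while 97 were called in the opposite direction. Of the called genes, 625 passed in neither single-agent comparison. A test of the combination difference against the ARPi difference passed in 109 genes (0.585%, with 0.22% positive and 0.365% negative), of which 67 were among the 2337. That count was 65 to 113 with a library left out, 65 being without enzalutamide replicate C, 263 with DESeq2 and 279 without a filter on low counts.

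CYP1A1 had a mean of 3.81 CPM with enzalutamide and 17.1 with abiraterone, a log2 difference of -2.16 ± 0.10, and 2.19 CPM with talazoparib and 2.38 with olaparib (-0.12 ± 0.13). Of the lists, G2/M had a median log2 difference of 0.167 between the ARPi and 0.00325 between the PARPi, and the ATF4 list had 0.555 and 0.0608. The p53 targets had -0.087 between the ARPi and -0.0955 between the PARPi, and the nuclear genes of oxidative phosphorylation 0.05 and 0.0556. THBS1 differed in both single-agent comparisons, by -1.08 ± 0.13 between the ARPi and by -0.47 ± 0.08 between the PARPi, with a mean of 24.4 CPM with talazoparib and 33.6 with olaparib. Of the 60 G2/M genes, 40 were higher and 0 lower with enzalutamide than with abiraterone, while 9.78% of all genes tested were higher there. PLK1, at 0.14 between the ARPi, did not pass there (adjusted p = 0.0506).

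**Figure D5:**
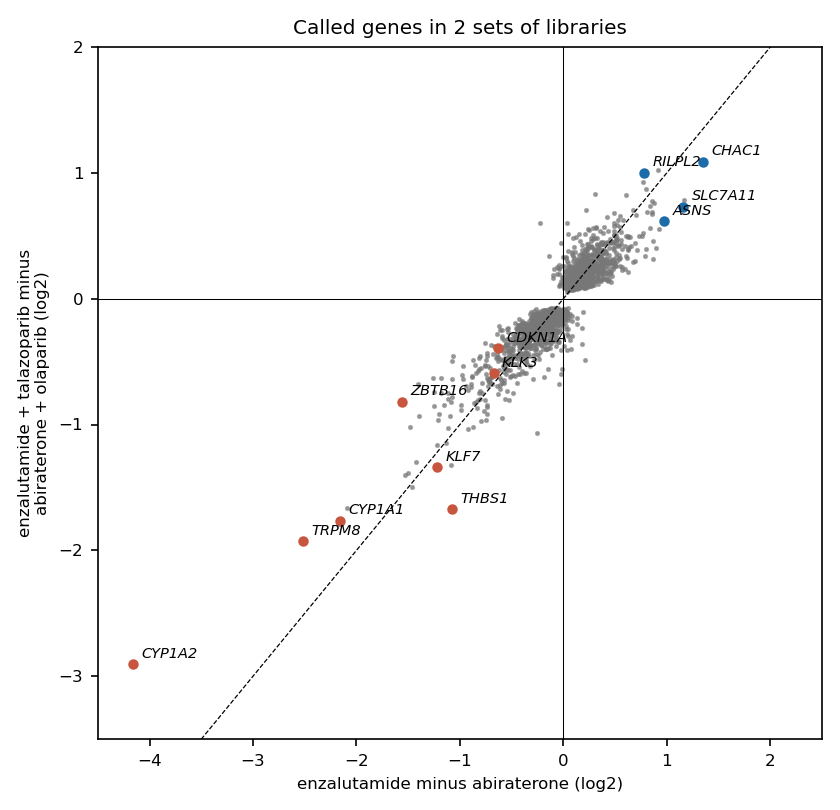
Log2 difference of enzalutamide plus talazoparib minus abiraterone plus olaparib (vertical) against that of enzalutamide minus abiraterone (horizontal), for 2160 called genes averaging 100 counts or more in whichever combination was higher; the dashed line marks equal values. Each point is a gene, the axes come from separate libraries, and CYP1A2 lies at -2.91 and -4.16 and CHAC1 at 1.09 and 1.35.

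Whether the combinations differed by more or less than the sum of the single-agent differences was tested gene by gene over 18 libraries. The departure passed in 596 genes (3.2%), 361 of them positive (1.94%) and 235 negative (1.26%), and 218 of the genes that separated the combinations were among them. In 170 of these the difference between the combinations was smaller than the sum and in 48 it was larger. The count depended on single libraries, from 342 without enzalutamide replicate A to 996 without talazoparib replicate A.

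The ATF4 list had 20 of 42 members with a negative departure and none with a positive one, and 16 to 21 were negative with a library left out. ASNS had means of 410 CPM with enzalutamide and 208 with abiraterone, and 226 with talazoparib and 171 with olaparib, single-agent log2 differences of 0.97 ± 0.06 and 0.41 ± 0.06, against 0.62 ± 0.07 between the combinations (departure -0.76 ± 0.11, adjusted p = 0.00143). Aminoacyl-tRNA synthetase genes had 12 of 37 members with a negative departure and none positive (11 to 12 negative and 0 to 2 positive with a library left out), led in significance by GARS1 at -0.48 ± 0.06 (adjusted p = 3.26e-06). Androgen response genes had 10 positive and 1 negative of 96 (8 to 12 and 0 to 2 with a library left out). The G2/M list had 4 positive and 0 negative of 60 (0 to 7 positive with a library left out).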

How the data were processed

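RNA from C4-2B cells was measured by stranded mRNA sequencing. Per the labels, reads passed through Trim Galore, STAR (genome GRCh38) and Salmon (GENCODE release 45). The authors deposited Salmon's estimated counts per gene, unnormalized and in whole numbers, and how they were rounded is not given in the sources used here. The table holds 63187 genes. Of these IDs, 62666 were paired with an entry of the name table and 42338 with a symbol. Coordinates are from an earlier GENCODE release on the same build and are given only for identical versioned IDs.

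From the counts of the 21 panel libraries, edgeR 4.0.16 (R 4.3.3) gave TMM-scaled CPM, log2 differences and p-values (filterByExpr by group, robust quasi-likelihood test, two-sided, Benjamini-Hochberg adjustment over 18625 genes), in a single fit without covariates. The single-agent differences and the departure from their sum were contrasts of that fit. Libraries of a group differed by more than sampling noise, so none was counted as a duplicate. The scripts were tested on simulated counts.

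The members and the 49 gene lists were chosen with earlier results of these data known. Genes were named by rule: the 12 largest rises and falls past the threshold with a symbol, an average of 100 counts or more in the higher group and no overlap, the 3 largest called changes of each list (all where 5 or fewer were called), 17 fixed genes and the 5 largest departures from the sum. Further list members named in the text were chosen after their values were seen. List medians per library were taken over log2 CPM with a prior count of 2. Promoter sequences are from RefSeq (GRCh38.p14), matched by symbol. Alternatives were other scalings, filters and fold thresholds, DESeq2 1.42.0, fits of the compared groups only, a replicate block, each library left out and, added after seeing the data, thinned counts. The columns of the time course were not analysed here, and some genes covered by the naming rule are not reported here.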

Additional observations from a re-analysis of the deposited data

Results flagged for a closer look

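In the genes named, 26 departures listed here from the sum of the single-agent differences passed the threshold by edgeR's quasi-likelihood test (adjusted p under 0.05), so that the difference between the combinations was not the one that adding the drugs' differences gives. Values are log2 departures, where a positive value means that enzalutamide plus talazoparib stood higher relative to abiraterone plus olaparib than the sum. Dixon's test for a library far from the others was not run on groups of 3.

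Among the named genes with a negative departure were SLC7A11 (-0.61), ASNS (-0.76), XBP1 (-0.44), GARS1 (-0.48), CARS1 (-0.40) and AARS1 (-0.24). For these, the ARPi differed more among single agents than the combinations did. The glucocorticoid target TSC22D3 had -0.39, the long noncoding RNA LINC01133 had -1.13 and the phosphodiesterase gene PDE2A had -1.17. PDE2A lost its call in 12 of 24 alternatives and TSC22D3 in 10 of 25.

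Among the named genes with a positive departure were TRPM8 (0.59), KLK2 (0.34), DPP4 (0.20), GHR (0.51) and ZBTB16 (0.63). For these the fall with enzalutamide relative to abiraterone was larger among single agents than between the combinations. TRPM8 lost its call in 1 of 25 alternatives, without enzalutamide replicate A, and DPP4 in 10 of 25.

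CYP1A2 had the largest departure of these genes, 2.35, and lost its call in 4 of 23 alternatives, with a departure between 1.80 and 3.69. It rests on 0.143 CPM with enzalutamide alone. The p53 targets CDKN1A and SPATA18 had 0.43 and 0.48, and the cell cycle gene E2F2 had 0.64. The other values were 0.49 for PER1, 0.29 for FZD5, 0.40 for SLC30A1, 0.31 for NPC1, 0.14 for AMD1, 0.41 for VWF, 1.30 for RAB43 and 1.11 for H2BC7, a histone gene whose near-identical copies make its count uncertain. Of 25 alternatives, RAB43 lost its call in 15, PER1 in 14, AMD1 and VWF in 10 each and FZD5 in 7. Of 24 alternatives, H2BC7 lost its call in 14 and SPATA18 in 8. The calls of the genes not named here with a loss held in every alternative in which they were computed.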

How the results depend on the processing

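Between the combinations, the count of 2337 genes lay between 2101 (thinned counts) and 2622 (only the groups compared) under other scalings, filters and tools, and between 1703 and 1904 with a library left out. A fold threshold of 0.5 gave 357 (96 higher, 261 lower) and of 1 gave 125 (22 higher, 103 lower). Among the called genes, 46.5% were higher, and 41.8% with total count scaling. More genes were higher than lower without a filter on low counts (1174 and 1090), with a mean of at least 50 counts (1241 and 1208), without abiraterone plus olaparib replicate A (886 and 873) and without enzalutamide plus talazoparib replicate C (911 and 901). Of the 182 calls of named genes in either test, 117 held in every alternative, and no call of a named gene changed direction. The fold thresholds gave 683 and 229 genes for enzalutamide against abiraterone, 55 and 17 for talazoparib against olaparib, 71 (29 positive, 42 negative) and 18 (7 positive, 11 negative) for the departure from the sum, and 15 and 1 for the departure from the ARPi difference, which passed in 109. DESeq2 gave 1123 departures from the sum (752 positive, 371 negative) and 263 from the ARPi difference, which had 279 without a filter on low counts and 181 with only the groups compared; the cause was not tested. With a library left out, talazoparib against olaparib ranged from 595 (without talazoparib replicate C) to 1821, with 752 without talazoparib replicate B and 751, 998 and 1035 without olaparib replicates C, A and B. The departure from the sum ranged from 342 to 996 (212 to 719 positive, 94 to 277 negative). It was 342 and 393 without enzalutamide replicates A and C, 347 without abiraterone plus olaparib replicate B, 396 without abiraterone replicate B, and 374 and 996 without talazoparib replicates C and A. The departure from the ARPi difference ranged from 65 to 113, with 65 without enzalutamide replicate C, 69 without abiraterone plus olaparib replicate B, and 66 and 71 without enzalutamide plus talazoparib replicates C and B, and enzalutamide against abiraterone gave 2882 to 3178.

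With the replicate block, 2271 genes were called between the combinations, 2225 of them shared with the 2337, and the departure from the sum had 533. Libraries of the same letter correlated in their deviations at 0.0993, 0.108 and 0.0264, not all over 0.1, and enzalutamide plus talazoparib replicate C correlated best with replicate B of the other combination (0.122), so the letters were not taken to pair the libraries. Levels near 3 counts, such as CYP17A1, are limited by depth, and p-values rest on 3 libraries per group in 1 cell line.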
